A study of Mus musculus with 20 samples.

Results

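Motile cilia are built by the ependymal cells that line the brain ventricles, and a list of 40 genes of these cilia and of the program that makes them was followed here across the RNA-seq libraries of cultured mouse forebrain slices. The list was given by gene symbol. All 40 genes were found in both deposited tables, among 19722 genes at 4 h and 51912 gene identifiers at 24 h, and all 40 passed the filter on low values in each table. The study concerns TSG-6, the hyaluronan-binding protein encoded by Tnfaip6, in hypoxic-ischemic brain injury. Slices from pups at postnatal day 4 were held in medium with 5% horse serum for 4 h or 24 h, so that serum was common to every group. At 4 h there were 3 wild-type libraries (TSG-6+/+, here WT) and 3 libraries labelled knockout (TSG-6-/-, here KO-labelled). The 24 h libraries have heterozygous controls (here Het), 3 titled female and 3 titled male, beside 4 KO-labelled females and 4 KO-labelled males. WT is named in the treatment protocol of the 24 h libraries, against the titles and genotype fields of their controls, which were followed. Neither the deleted stretch of Tnfaip6 nor the number of animals behind a group is stated. All p-values therefore measure the spread between these libraries, which may be partly technical.

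A motile cilium has a ring of doublet microtubules around a central pair. Dynein arms on the doublets make the stroke, and radial spokes, the central apparatus, the nexin-dynein regulatory complex and a molecular ruler set where the arms sit and when they act. In the postnatal forebrain, radial glia along the ventricle turn into multiciliated ependymal cells, whose beating cilia move cerebrospinal fluid. Multicilin (Mcidas) starts this program with E2F factors, cyclin O (Ccno) serves the mass production of basal bodies, Myb is an early transcription factor of the program, and Foxj1 with the RFX factors Rfx2 and Rfx3 switches on the genes of the motile axoneme. Choroid plexus epithelium, which secretes cerebrospinal fluid, carries cilia of its own and also lies in the ventricles.

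Each 4 h library held between 11411532 and 15030171 recovered reads, and each 24 h library between 8482933 and 18051300 counts. Tnfaip6 itself was read in every library, with 81.4 ± 12.98 normalised reads in WT and 65.7 ± 22.3 in KO-labelled slices at 4 h (SD, n = 3 each), and 3.43 to 6.42 CPM in Het and 5.14 to 8.09 CPM in KO-labelled libraries at 24 h. By this measure the libraries called KO had not lost the transcript, and every genotype direction below rests on the labels. Of the libraries titled female, KO female 2 held 1650 reads of 4 Y-linked genes and 0 Xist reads. At 4 h, where the labels give no sex, WT 1 and KO 1 held Xist reads and the other 4 libraries Y-linked reads. The forebrain identity genes Emx1, Emx2, Lhx2, Dlx1 and Dlx2 were present throughout, with summed levels of 2784 to 3645 normalised reads at 4 h and 129 to 208 CPM at 24 h. Choroid plexus reads stood out in 3 of the 24 h libraries, with Ttr, the transthyretin gene of that epithelium, at 1472 CPM in KO female 1, 2706 CPM in KO female 3 and 456 CPM in KO male 3, against at most 0.778 CPM in the other 11.

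The levels of the 40 genes differed widely when set per kilobase of exon. At 24 h the radial spoke head gene Rsph9 stood at 16.4 ± 2.34 RPKM and Foxj1 at 16.2 ± 5.64 (mean ± SD, n = 14 libraries), 2 values within each other's spread. The dynein light chain gene Dynlrb2 followed at 12.6 ± 3.64, the spoke gene Lrrc23 at 10.3 ± 3.03 and Rfx3 at 8.59 ± 0.677 RPKM. Among the other structures, Drc1, a subunit of the nexin-dynein regulatory complex, led with 7.89 ± 1.22, Tmem212, a membrane protein gene of ciliated cells, with 5.89 ± 3.29, and Spag6l of the central apparatus with 4.00 ± 0.648 RPKM. The starter genes of the program were low, Ccno at 1.36 ± 0.470, Mcidas at 0.552 ± 0.199 and Myb at 0.406 ± 0.153 RPKM. So were genes of the giant proteins of the axoneme, with Hydin of the central apparatus at 0.501 ± 0.213 and the outer arm heavy chain gene Dnah11 at 0.315 ± 0.152 RPKM. Reads of the smallest members were few: Mcidas had 4 counts in its lowest 24 h library and Daw1, a dynein assembly factor, 8 reads in its lowest 4 h library. In the reference, 13 of the 40 genes share exon bases with a gene on the opposite strand (Ccdc39 with Ttc14, Dnai1 with Enho, Dnah11 with Cdca7l), and the strand setting of the counting is not given, so that reads there cannot be assigned to 1 strand.

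These genes varied more between libraries of a group than most. The within-group SD on the log2 scale had a median of 0.25 over the 40 genes against 0.14 over all 15181 genes tested at 4 h, and of 0.33 against 0.15 over 16013 genes at 24 h. At 4 h it ran from 0.08 for Cfap43, a tether gene of the inner arm, to 0.63 for Dnah11, and at 24 h from 0.10 for Rfx3 to 0.62 for Tmem212. The genes compared were not matched on level, and low read numbers widen the spread on this scale. Their part in the difference was not tested.

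**Figure D1:**
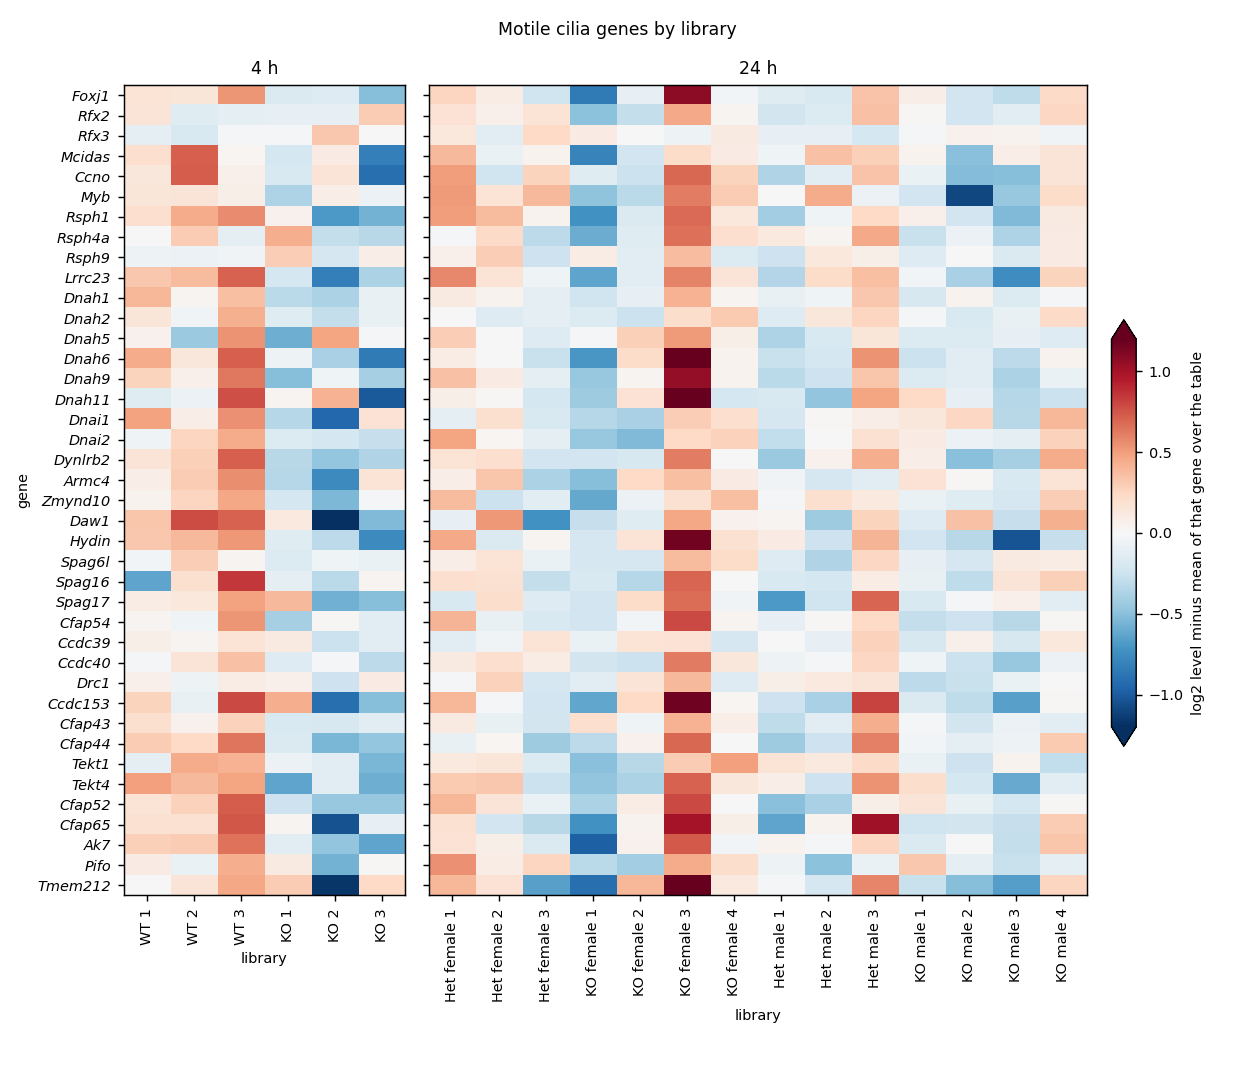
Heat map of the log2 level of each of the 40 genes (rows) in the 6 libraries at 4 h and the 14 libraries at 24 h (columns), each as the difference from that gene's mean over its table, with colours ending at ±1.2. At 4 h, WT 3 was above the table mean for 36 of 40 genes and KO 2 for 7; at 24 h, KO female 3 was above it for 39 and KO female 1 for 3.

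The RFX factors bind a motif whose single arm can be written GTTGCC, and promoters were searched for it. Any part of RFX binding in the levels of these genes was not tested. Windows of 250 bases before a start site were available for 34 of the 40 genes (37 windows, RefSeq, GRCm38.p6). The letters GTTGCC, on either strand, stood in 13 of the 37 windows (35.1%), against 10.4% of all 32851 windows. The 13 genes were Ccdc153, Ccno, Cfap44, Dnai2, Drc1, Dynlrb2, Hydin, Lrrc23, Mcidas, Pifo, Rfx2, Spag16 and Tekt1. Below, stretches of 80 bases from 5 of them are shown, 5′ to 3′ on the strand of the gene, with GTTGCC or its reverse complement in capitals. Lrrc23 and Cfap44 are shown for their small p-values at 4 h, and Ccno, Mcidas and Rfx2 because they are themselves part of the program. Ak7, Foxj1 and Rsph1, the other members with the 5 smallest p-values at 4 h, were not among the 13 genes.
Lrrc23, chr6:124779842-124779921, minus strand: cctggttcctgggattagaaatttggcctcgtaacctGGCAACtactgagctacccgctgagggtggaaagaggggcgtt
Cfap44, chr16:44394633-44394712, plus strand: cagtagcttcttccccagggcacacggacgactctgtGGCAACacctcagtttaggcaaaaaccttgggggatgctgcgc
Ccno, chr13:112987552-112987631, plus strand: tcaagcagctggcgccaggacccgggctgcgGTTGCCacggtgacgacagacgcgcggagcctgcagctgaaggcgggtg
Mcidas, chr13:112993636-112993715, plus strand: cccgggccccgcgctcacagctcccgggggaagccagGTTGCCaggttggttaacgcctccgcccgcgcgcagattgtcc
Rfx2, chr17:56831082-56831161, minus strand: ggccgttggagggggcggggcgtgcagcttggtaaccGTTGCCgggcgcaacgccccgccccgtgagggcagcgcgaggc
In the Lrrc23 and Cfap44 stretches the match lay on the opposite strand, 157 and 129 bases before the start at its far end, and each window held another match. In Ccno, Mcidas and Rfx2 it lay on the strand of the gene, 219, 195 and 116 bases before the start, as the only match of the window. Both arms in the loose spelling GTNNCC and GGNNAC, with 2 free bases between them, were found in 3 windows (8.11% against 1.57% of all windows), those of Ccno, Pifo and Tekt4, and the forkhead letters GTAAACA in 2 (5.41% against 3.17%). In all, 12 spellings were tried on both strands, and these 3 were picked after their matches were seen. The loose arms stood in 2 windows with 1 base between them (0.834% of all windows) and in 0 with 3 bases (0.545%). With 2 bases between them, GTTNCC and GGNNAC stood in 3 windows (1.06%), GTTNCC and GGNAAC in 1 (0.374%) and GTTGCC and GGCAAC in 0 (0.0791%). The single arm GTTGCCNNG stood in 10 windows (4.09%), GTTGCCATG and GTTNCC followed by ATGG in 0 (0.642% and 0.98%), and the forkhead letters TGTTTG in 7 (5255 of all windows). Several of these spellings contain one another, and a match is a string of letters, not a bound site.

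The first comparison set KO-labelled against WT slices at 4 h. Most of the cilia genes stood lower in KO-labelled slices: 37 of 40 had a negative log2 fold change (49.4% of all genes tested did) and 3 a positive one (50.6%), with a median of -0.50 against 0.00 over all 15181 genes. No member passed an adjusted p of 0.05 in limma, where 0.0329% of all genes were called lower and 0.0132% higher. At an unadjusted p under 0.05, 22 of 40 were lower (55.0%, against 6.65% of all genes) and 1 was higher (Rfx3, 2.5% against 7.25%). The edgeR test on the recovered reads also called 0 members, and DESeq2 on the same reads called 1, Foxj1, with an adjusted p of 0.00643. DESeq2 also called more of all genes than limma did, as counted in the last paragraph. With the replicate number as a block, a pairing that the labels do not state, limma called Lrrc23 with an adjusted p of 0.0337. The block, too, raised the number of calls over all genes. In bulk slices, fewer ciliated cells and less of these RNAs per cell cannot be told apart.

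The regulators did not all point one way. Foxj1 (ENSMUSG00000034227, chromosome 11 at 116330704 to 116335399, minus strand in GRCm38) held 515, 507 and 662 normalised reads in WT 1 to 3 and 407, 411 and 323 in KO 1 to 3. All 3 KO-labelled libraries lay below all 3 WT libraries, and the log2 fold change was -0.56 ± 0.12 (SE) with an adjusted p of 0.105 in limma. Rfx3 held 933, 885 and 996 in WT and 996, 1262 and 1013 in KO-labelled slices, with a log2 fold change of 0.21 ± 0.09 and an adjusted p of 0.339 in limma. It was the single member whose KO-labelled libraries all lay above WT, though KO 1 exceeded WT 3 by under 1 normalised read. Rfx2 held 99.9, 80.8 and 82.3 in WT and 83.4, 83.8 and 111 in KO-labelled slices and its groups overlapped (0.07 ± 0.18). Mcidas, with 26.5, 38.4 and 23.4 against 19.7, 24.7 and 12.5 normalised reads, and Ccno, with 64.5, 97.6 and 61.0 against 51.6, 65.3 and 30.8, are neighbours on chromosome 13. WT 2 was the highest and KO 3 the lowest library for both, other libraries overlapped, and the log2 fold changes were -0.62 ± 0.33 and -0.62 ± 0.27 (adjusted p = 0.422 and 0.332, limma). Myb held 66.3, 67.0 and 63.0 in WT and 46.1, 63.5 and 57.0 in KO-labelled slices, a log2 fold change of -0.24 ± 0.19, with KO 2 inside the WT range.

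Among radial spoke genes, Lrrc23 (ENSMUSG00000030125, chromosome 6 at 124769863 to 124779727, minus strand) had the smallest p of all 40 genes. It held 243, 251 and 317 normalised reads in WT and 167, 109 and 148 in KO-labelled slices. The groups did not overlap, every replicate number gave a lower KO-labelled value, and the log2 fold change was -0.94 ± 0.16 (adjusted p = 0.0810 in limma, and 0.0337 with the block). Rsph1 (chromosome 17 at 31255019 to 31277383, minus strand), a spoke head gene, held 126, 149 and 162 in WT and 113, 67.0 and 73.0 in KO-labelled slices (-0.81 ± 0.20, adjusted p = 0.131, limma). KO 1 came close to the lowest WT library while KO 2 and KO 3 were far below it. Its partners in the spoke head gave values closer to 0. Rsph9 held 240.4, 239 and 243 in WT and 308, 219 and 265 in KO-labelled slices (0.12 ± 0.13), and Rsph4a 223, 274 and 204 and 301, 182 and 176 (-0.13 ± 0.18). For both, KO 1 was the highest of the 6 libraries and the groups overlapped.

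All 12 genes of the dynein arms, their docking and their assembly had a negative log2 fold change at 4 h (median -0.58), 9 of them at an unadjusted p under 0.05. Dynlrb2 held 82.2, 89.7 and 122 normalised reads in WT and 58.1, 52.9 and 57.0 in KO-labelled slices (-0.78 ± 0.19, adjusted p = 0.135, limma), with close KO-labelled values and a wide WT spread. The inner arm heavy chain gene Dnah6 gave -0.87 ± 0.22 and the outer arm heavy chain gene Dnah9 -0.64 ± 0.18, both with groups apart. Daw1 had the most negative value of the list, -1.21 ± 0.38, from 25.6, 35.5 and 33.5 to 21.9, 7.06 and 13.7 normalised reads. Its SE was the widest of those given so far, and KO 2, the lowest library, held 8 reads. The outer arm heavy chain genes Dnah5 (-0.09 ± 0.27) and Dnah11 (-0.37 ± 0.36) overlapped between groups, and in each KO 2 was above WT 2.

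The central apparatus and the remaining axonemal genes leaned the same way. All 5 central apparatus genes were negative (median -0.34), 1 of them at an unadjusted p under 0.05: Hydin, whose loss is known to stop normal bending of ependymal cilia, with 76.0, 79.8 and 87.4 in WT and 54.9, 48.5 and 35.4 in KO-labelled slices (-0.82 ± 0.21, adjusted p = 0.145, limma). Spag6l held 194, 243 and 202 and 177, 191 and 187, groups that did not overlap but lay close (-0.20 ± 0.12). All 6 ruler, regulatory complex and tether genes were negative (median -0.34), 3 at an unadjusted p under 0.05, from Cfap44, a tether gene (chromosome 16 at 44394796 to 44482428, plus strand; -0.79 ± 0.16, adjusted p = 0.0935, limma), to Drc1 (-0.06 ± 0.12). Cfap44 held 141, 135 and 178 in WT and 101, 77.6 and 82.1 in KO-labelled slices, with every KO-labelled library below every WT library. Drc1 held 253, 233 and 257 and 252, 204 and 259, and its groups overlapped. All 7 inner microtubule proteins and other genes were negative (median -0.74), 5 at an unadjusted p under 0.05. Ak7, an adenylate kinase of the axoneme (chromosome 12 at 105705976 to 105782447, plus strand), held 133, 134 and 171 in WT and 98.7, 77.6 and 69.6 in KO-labelled slices (-0.83 ± 0.17, adjusted p = 0.0935, limma), again with groups apart. The microtubule inner protein gene Cfap52 (-0.77 ± 0.21) and the tektin gene Tekt4 (-0.90 ± 0.27) also had groups apart, whereas Tmem212 (21.2, 23.6 and 29.5 against 26.3, 8.82 and 25.1) overlapped, with KO 2 alone far below the rest.

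**Figure D2:**
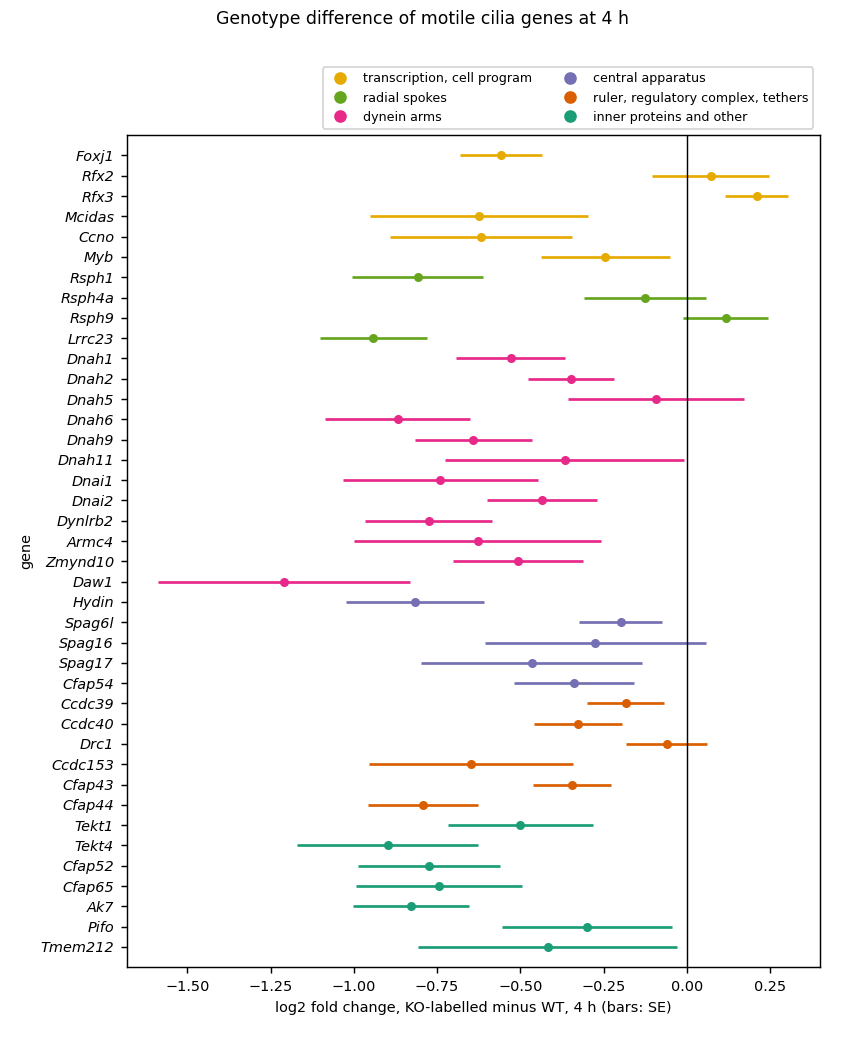
Log2 fold change of each of the 40 genes at 4 h, KO-labelled minus WT, from limma on log2(normalised reads + 1), with bars of 1 SE and colours by role. The points left of 0 are the 37 genes with lower levels in KO-labelled slices, and Rfx2, Rfx3 and Rsph9 lie to the right.

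Counted library by library, 20 of 40 genes had all KO-labelled libraries below all WT libraries (8.88% of all genes tested), and 1 the reverse (10.1%). Besides those described, they were Dnah1, Dnah2, Dnai2, the assembly factor gene Zmynd10, Ccdc40, Cfap43 and Cfap65. Within the replicate numbers, KO was below WT for 29 genes in number 1 (49.4% of all genes), 35 in number 2 (50.8%) and 36 in number 3 (49.2%), and in all 3 numbers for 25 genes (19.3%). WT 3 was the highest of the 6 libraries for 27 of the 40 genes (15.8% of all genes). Without WT 3, 35 of 40 genes were still negative, with a median of -0.41, and without KO 2 the median was -0.42 and limma called 4 members lower (Lrrc23, Dnah9, Foxj1 and Ak7). Without KO 1 limma called Lrrc23. Over all genes, too, limma called more without KO 2 or without KO 1 than with all 6 libraries, as counted in the last paragraph. Without WT 1 and KO 1, the libraries with Xist reads, 37 genes were negative with a median of -0.67. These 2 libraries share their number, so that the Xist split and number 1 cannot be told apart.

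Genes of the same organelle outside the list gave similar values. Of 81 other motile cilium genes tested, 68 were negative (median -0.40), 34 lower and 0 higher at an unadjusted p under 0.05, and 0 were called. The smallest p-values were those of Wdr78, an intermediate chain gene of an inner arm (-0.62 ± 0.15), and the heavy chain gene Dnah12 (-1.53 ± 0.38). Among 17 genes of multiciliated cell differentiation and centriole amplification, 14 were negative (median -0.24), led by Cdc20b (-1.27 ± 0.30, 37.1, 41.4 and 34.6 against 18.7, 17.6 and 10.3 normalised reads) and the deuterosome gene Deup1 (-0.65 ± 0.21). Cdc20b and Deup1 both serve centriole production in multiciliated cells. Cilium genes not special to motile cilia stood closer to 0: 25 of 38 genes of intraflagellar transport and the BBSome were negative (median -0.06), and 26 of 33 genes of the primary cilium and its Hedgehog signalling (median -0.10). No gene of these lists passed the adjusted threshold, and no difference between the lists was tested.

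Markers of other cells moved at 4 h as well, and their part in the result was not tested. The summed level of the 40 genes was 5813 to 6873 normalised reads in WT and 4785 to 5231 in KO-labelled libraries. Ependymal genes other than cilia genes were negative in 8 of 8 (median -0.28), with sums of 10902 to 12736 in WT and 10323 to 12813 in KO-labelled libraries, which overlap. Radial glia genes, of the cells that give rise to ependyma, were negative in 14 of 14 (median -0.22), with sums of 43431 to 44872 and 35357 to 40544. Meningeal genes were negative in 8 of 8 (median -0.53; sums 2635 to 3167 and 1810.4 to 2957) and endothelial genes in 7 of 7 (median -0.33; sums 3076 to 3550.2 and 2547 to 2867). Neuronal genes were positive in 6 of 8 (median 0.12), with sums of 45236 to 48771 in WT and 52039 to 54026 in KO-labelled libraries. Microglial genes were near 0 (5 of 7 negative, median -0.03), as were forebrain identity genes (3 of 5 negative, median -0.09). Choroid plexus genes were negative in 5 of the 8 tested (median -0.09). Their defining gene Ttr was at 0.884 to 3.94 normalised reads in every 4 h library, and the list summed to 1168 to 1216 in WT and 1027 to 1146 in KO-labelled libraries. At an unadjusted p under 0.05 in limma, 9 of 14 radial glia genes, 6 of 8 meningeal and 5 of 7 endothelial genes were lower. So were 4 of 8 ependymal and 2 of 8 choroid plexus genes, and 0 microglial or forebrain identity genes. Of the 8 neuronal genes, 3 were higher. Over all genes, 6.65% were lower and 7.25% higher at that level. No gene of these lists was called.

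The second comparison asked how KO-labelled slices differed from Het slices after 24 h. Averaged over the sexes, 23 cilia genes were negative (50.0% of all genes) and 17 positive (50.0%), with a median of -0.02. No member was called by edgeR or by DESeq2 (0.0% of all 16013 genes were called by edgeR in either direction), and 0 members had an unadjusted p under 0.05, against 2.8% of all genes lower and 3.82% higher. The smallest unadjusted p-values belonged to Myb (-0.45 ± 0.25, adjusted p = 0.794, edgeR), Mcidas (-0.41 ± 0.30), Lrrc23 (-0.24 ± 0.20), Drc1 (-0.11 ± 0.10) and Ccdc40, a ruler gene (-0.14 ± 0.13). Myb held 5.29, 3.96 and 4.79 CPM in Het females and 2.17, 2.52, 5.78 and 4.44 in KO-labelled females, 3.45, 5.02 and 3.21 in Het males and 2.77, 1.07, 2.23 and 4.13 in KO-labelled males. Its lowest value was that of KO male 2 and its highest that of KO female 3, so the KO-labelled libraries spanned the Het range. Mcidas held 1.96, 1.14 and 1.32 CPM and 0.299, 0.934, 1.63 and 1.43 in Het and KO-labelled females, and 1.18, 1.88 and 1.75 and 1.33, 0.593, 1.39 and 1.51 in males. KO female 1 was the lowest, with 4 reads, and the groups overlapped in both sexes. Lrrc23 averaged 19.6 ± 4.48 CPM (SD) over the 6 Het libraries and 16.5 ± 5.58 over the 8 KO-labelled ones, with ranges of 13.2 to 26.1 and 9.83 to 26.5. The same ranges were 18.1 to 25.6 and 16.6 to 27.7 CPM for Drc1 and 16.3 to 20.6 and 12.2 to 27.0 for Ccdc40, all overlapping.

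Foxj1 at 24 h differed between the genotypes by less than the spread of its libraries. It held 48.7, 43.3 and 34.3 CPM in Het females, 22.1, 37.9, 86.8 and 39.7 in KO-labelled females, 36.6, 35.6 and 51.6 in Het males and 43.0, 34.5, 32.7 and 47.8 in KO-labelled males. The highest and the lowest of the 14 values, KO female 3 and KO female 1, belong to the same group, and the averaged log2 fold change was 0.05 ± 0.22 (adjusted p = 0.988, edgeR). Without KO female 3 it was -0.20. Rfx3 was steady, at 93.2 ± 11.6 CPM in Het and 96.2 ± 4.36 in KO-labelled libraries, Rfx2 lay at 7.70 ± 1.29 and 7.15 ± 1.76, and Ccno at 3.64 ± 1.12 and 3.33 ± 1.31 CPM. The log2 fold changes of these 3 genes were 0.05 ± 0.05, -0.09 ± 0.16 and -0.12 ± 0.23. By role, the averaged medians ran from -0.14 for the radial spokes to 0.05 for the dynein arms. Of 83 other motile cilium genes 44 were positive (median 0.01), 12 of 17 multiciliated differentiation genes were negative (median -0.13), 31 of 38 intraflagellar transport and BBSome genes were negative (median -0.05), and 0 genes of these lists were called. The 4 h and 24 h contrasts have different controls, WT and Het, and whether they differ was not tested.

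Split by sex, 28 of 40 genes were positive in females (median 0.05, against 51.2% of all genes positive and 48.8% negative) and 30 of 40 negative in males (median -0.11, against 50.3% negative and 49.7% positive). Neither sex had a member called by edgeR or DESeq2 (0.0% of all genes were called by edgeR in either direction) or at an unadjusted p under 0.05 in edgeR (2.04% lower and 2.06% higher of all genes in females, 2.74% and 4.13% in males). In the test of the difference, males minus females, 28 genes were negative and 12 positive (49.9% and 50.1% of all genes), with a median of -0.21, and 0 were called (0.0% of all genes). Only Hydin had an unadjusted p under 0.05 (-0.94 ± 0.44, adjusted p = 0.977 in edgeR; 1.95% of all genes were lower and 1.91% higher at that level). Hydin held 12.01, 7.39 and 8.68 CPM in Het and 7.26, 9.62, 20.2 and 9.76 in KO-labelled females, and 9.16, 6.96 and 11.6 in Het and 7.09, 6.53, 3.62 and 6.84 in KO-labelled males. KO female 3 was far above and KO male 3 below every other library. The next smallest p was that of Cfap43 (-0.40 ± 0.23), at 17.8, 15.5 and 14.1 and 19.1, 15.9, 22.4 and 17.5 CPM in females and 13.2, 14.9 and 22.7 and 16.2, 14.001, 15.7 and 15.03 in males, where Het male 3 and KO female 3 were the high libraries. Between the sexes as titled, with KO female 2 among the females, 32 of 40 genes were lower in males (median -0.13). Over all genes, 51.6% were lower and 48.4% higher. Among the 40 genes, 0 were called (0.0187% of all genes were called lower). An unadjusted p under 0.05 in edgeR was reached by 3, Dnah5 (-0.30 ± 0.12), Hydin (-0.51 ± 0.22) and Rfx3 (-0.13 ± 0.05), against 2.3% of all genes lower and 2.12% higher. Without KO female 3 the medians were -0.15 in females (35 of 40 negative), -0.16 averaged (33 negative), 0.05 for the difference of the sexes' contrasts and 0.01 between the sexes. Without Het male 3 the male median was 0.09. Without KO female 2, whose sex-linked reads went against its title, the female median was 0.14 (10 negative), and 0 members were called in any of the 5 contrasts.

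KO female 3 stood apart from the other libraries at 24 h. It was the highest of the 14 libraries for 27 of the 40 genes (67.5%, against 10.9% of all genes tested) and above the mean of the table for 39. Its summed level of the 40 genes was 802 CPM, against 436 to 642 CPM in the other 13. Compared with the median of the other 13, its level was 3.14 times as high for Dnah11, 2.88 for Tmem212, 2.77 for Ccdc153, a gene of the regulatory complex, 2.73 for Hydin, 2.64 for Dnah6 and 2.29 for Foxj1. The ratio was 1.29 for Rsph9, 1.22 for Mcidas and 0.955 for Rfx3. The same library had the largest total, 18051300 counts, and the most choroid plexus reads, with a summed level of 3096 CPM for 18 genes. KO female 1 was also rich in choroid plexus reads (1801 CPM), yet had the lowest sum of the 40 genes, 436 CPM, and was the lowest of the 14 libraries for 14 of them (35.0%, against 8.42% of all genes). KO male 3, with 692 CPM of choroid plexus genes, had 459 CPM, and the other 11 libraries had 141 to 201 CPM of choroid plexus genes and 472 to 642 CPM of cilia genes. Choroid plexus genes were positive in 15 of the 16 tested in the averaged contrast (median 0.99, 11 at an unadjusted p under 0.05, 0 called). Without the 3 libraries with choroid plexus reads, the medians of the 40 cilia genes were -0.06 averaged, -0.03 in females and -0.06 in males, and 0 were called. Beyond that, the part of choroid plexus tissue in these values was not tested.

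**Figure D3:**
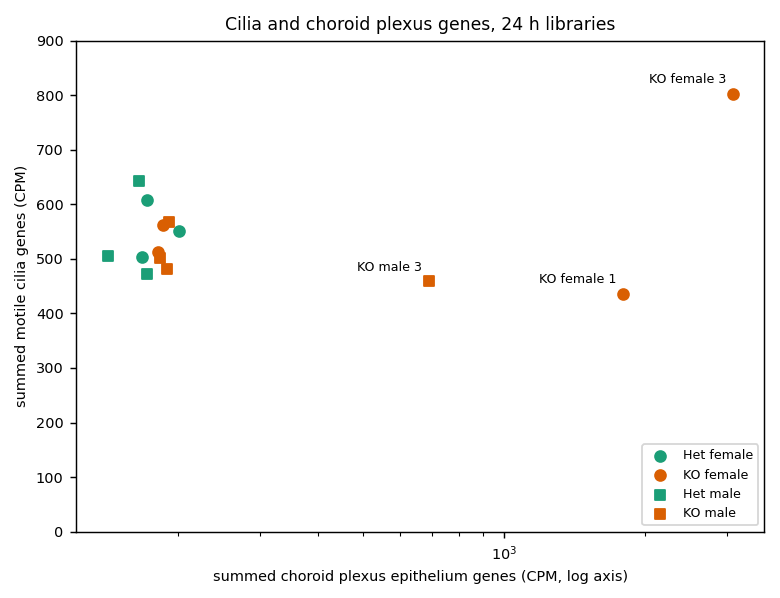
Summed CPM of the 40 motile cilia genes (vertical axis) against summed CPM of 18 choroid plexus epithelium genes (horizontal log axis) in the 14 libraries at 24 h, with colours for genotype and shapes for sex. KO female 3 lies highest on both axes, whereas KO female 1 and KO male 3 are high in choroid plexus genes and low in cilia genes.

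Across the 14 libraries at 24 h most members followed Foxj1. Pearson's r with Foxj1 on log2(CPM + 1) had a median of 0.716 over the other 39 genes and exceeded 0.5 for 36 of them (92.3%, against 7.09% of all genes tested, whose median was -0.01). Of 46 relations computed, with 100000 permutations each and Benjamini-Hochberg adjustment, 33 of the 39 genes passed an adjusted permutation p of 0.05 by r and 27 by Spearman's rho. The closest were Ak7 (r = 0.923, rho = 0.846) and Dnah6 (r = 0.922, rho = 0.864). Among the regulators, Rfx2 gave r = 0.859, rho = 0.776, adjusted permutation p = 0.000329 and 0.00549. Mcidas gave r = 0.646 and Ccno r = 0.673, both past the threshold, and Myb r = 0.548 (adjusted permutation p = 0.0558), which missed it. The relation missed the threshold for Rfx3 (r = -0.406, rho = -0.433, adjusted permutation p = 0.170 and 0.140) and for the ruler gene Ccdc39 (r = 0.380, rho = 0.284, adjusted permutation p = 0.203 and 0.349). By r it was also missed for Rsph9, Cfap43 and Tekt1 (adjusted permutation p = 0.0793, 0.0979 and 0.0508). Leaving out KO female 3 and KO female 1, the 2 libraries farthest from the median of Foxj1, the median r was 0.636, the range -0.391 to 0.878, and 28 of 39 genes were above 0.5 (7.73% of all genes). For Drc1, r was 0.576 with all 14 libraries and 0.307 without those 2, on which its relation rests. Leaving them out also took Tekt1 from 0.547 to 0.175 and Mcidas from 0.646 to 0.476. Of the positive relations, r rose only for Rsph9, Dynlrb2 and Cfap43. The points share their libraries and with them the depth. The libraries of a group numbered 3 or 4, too few for a value within a group.

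The summed level of the other motile cilium genes also followed Foxj1 (r = 0.949, rho = 0.890, adjusted permutation p = 0.000184 and 0.000552; r = 0.877 without the 2 libraries). That of the primary cilium genes did so less closely (r = 0.724, rho = 0.657, adjusted permutation p = 0.00776 and 0.0247; r = 0.492 without the 2), a difference that was not tested. Intraflagellar transport genes (r = -0.297, and -0.651 without the 2), ependymal genes other than cilia (r = 0.0902), choroid plexus genes (r = 0.136), radial glia genes (r = 0.379) and multiciliated differentiation genes (r = 0.312) had adjusted permutation p-values from 0.193 to 0.761 by r. By rho these p-values ran from 0.115 to 0.904.

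**Figure D4:**
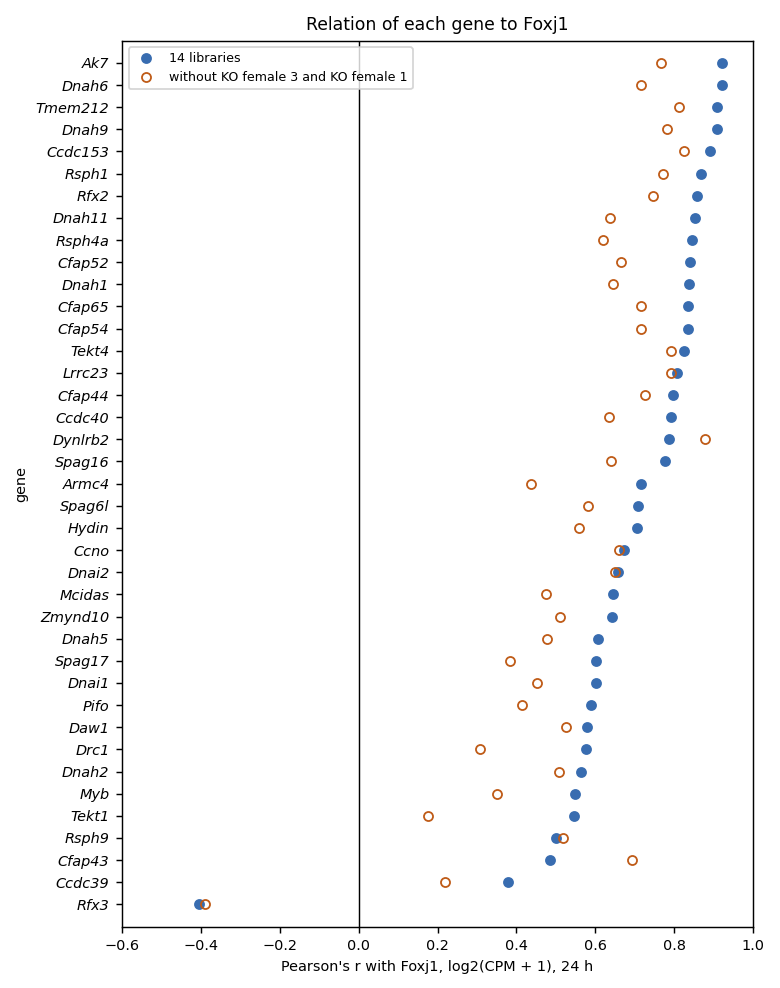
Pearson's r of each of the other 39 genes with Foxj1 on log2(CPM + 1) at 24 h, over 14 libraries (filled) and over 12 without KO female 3 and KO female 1 (open), ordered by the first. Most points lie between 0.5 and 0.923, and Rfx3 at -0.406.

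KO-labelled slices were present at both times, and their levels can be set side by side. The times were deposited as separate tables, so that time cannot be told apart from table and no test was made. As CPM of the library total, 36 of 40 cilia genes had a higher mean at 24 h (64.4% of 15090 genes tested in both tables), and the median ratio of 24 h to 4 h was 1.61 against 1.09 over those genes. At 4 h these KO-labelled libraries gave a negative log2 fold change against WT for 37 of the 40 genes. The 8 at 24 h include KO female 3, the highest library for 27 members, and the 3 libraries with choroid plexus reads. The part of these libraries in the ratios was not tested. Every one of the 8 KO-labelled libraries at 24 h was above every one of the 3 at 4 h for 16 members (24.5% of all genes), and the reverse held for 0 (8.95%). The highest ratios were those of Armc4, a docking gene, with 0.886 ± 0.317 CPM at 4 h and 2.60 ± 0.630 CPM at 24 h, and Dnah6, with 4.87 ± 1.29 CPM at 4 h and 13.7 ± 6.98 CPM at 24 h. Tmem212 followed with 1.53 ± 0.751 CPM at 4 h and 4.23 ± 2.92 CPM at 24 h, and then Dnah1, an inner arm heavy chain gene, with 6.56 ± 0.779 CPM at 4 h and 17.5 ± 2.87 CPM at 24 h. The ranges of the 2 times did not overlap for Armc4, Dnah6 and Dnah1, and did for Tmem212. The 4 genes with a lower mean at 24 h were Mcidas, with 1.44 ± 0.452 CPM at 4 h and 1.13 ± 0.479 CPM at 24 h, Ccno, with 3.74 ± 1.29 CPM at 4 h and 3.31 ± 1.30 CPM at 24 h, Myb, with 4.22 ± 0.659 CPM at 4 h and 3.12 ± 1.52 CPM at 24 h, and Rsph4a, with 16.7 ± 5.33 CPM at 4 h and 16.1 ± 4.91 CPM at 24 h. The first 3 of them are the early genes of the multiciliated program, and in all 4 the ranges overlapped. Foxj1 stood at 28.9 ± 3.56 CPM at 4 h and 42.8 ± 19.0 CPM at 24 h, and its ranges overlapped.

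**Figure D5:**
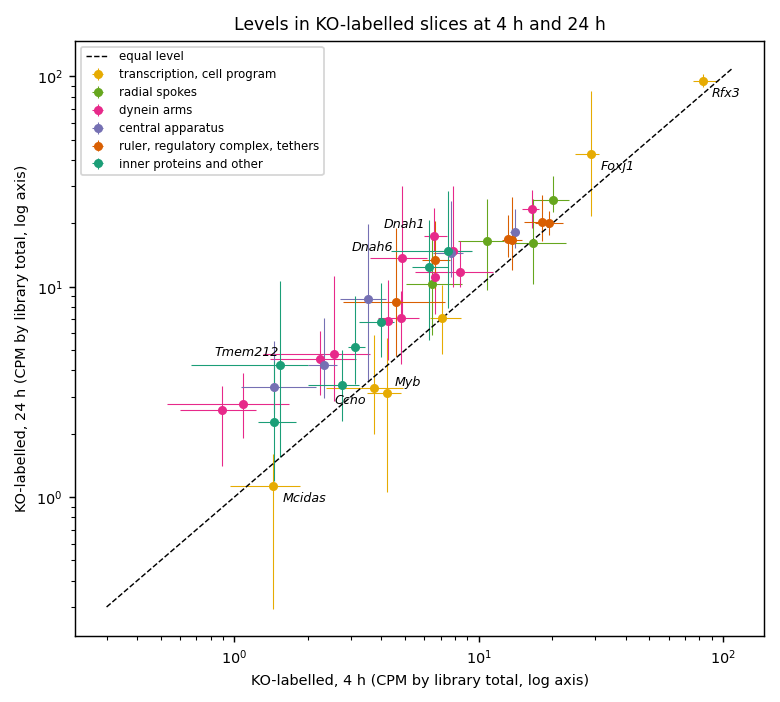
Mean CPM by library total of each of the 40 genes in the 3 KO-labelled libraries at 4 h (horizontal log axis) and the 8 at 24 h (vertical log axis), with bars from the lowest to the highest library and a dashed line of equal level. 36 genes lie above the line, and Mcidas, Ccno, Myb and Rsph4a below it.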

How the data were processed

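RNA from cultured forebrain slices was sequenced as 20 libraries. GRCm38 (mm10), TopHat2, HTSeq and DESeq2 1.38.3 are named, with no role or order, in the submitters' processing notes. Strand setting and annotation release: not given in the sources used here. Raw counts per gene were deposited by the authors for 24 h. For 4 h the authors deposited a signal, reads divided by a size factor. Whole reads were recovered from it, and 100% of values came out whole within 0.05.

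At 4 h, log2(value + 1) of genes with a mean of at least 10 was tested with limma 3.58.1, so that fold changes are on the log2(value + 1) scale and understate those of low genes. At 24 h, counts were tested with edgeR 4.0.16 (quasi-likelihood F test, TMM factors, filterByExpr), with 1 mean for each genotype and sex over all 14 libraries. p-values were adjusted by the Benjamini-Hochberg method over all genes tested, with a threshold of 0.05. The tests were also run on simulated data, with independent genes and the same dispersion for every gene. That setting differs from these 40 genes, which moved together and were in part low, so it does not show how the tests perform for them. CPM values use TMM factors unless said to be by library total, and RPKM values use the exon length of genes in mouse GENCODE release M21. DESeq2 1.42.0 was an alternative, with other pseudocounts, filters and scalings, and each library left out.

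At 4 h, deviations from the group mean correlated at 0.264, 0.140 and 0.175 between libraries with the same replicate number. Between different numbers the correlations were -0.218 to 0.0638. Deviations from a group mean cancel within the group, so positive values for the same numbers force lower ones for different numbers. These values therefore cannot settle whether the numbers pair the libraries. The replicate block was an alternative, and any such pairing comes from the data, not from the labels. The 40 genes and the other gene lists were chosen with earlier results of these data known. All 40 genes are accounted for. Levels are given for the 5 with the smallest p at 4 h, the 5 at 24 h, the 2 for the difference between the sexes' contrasts, the highest per length of each role, and 6 regulators. From other lists at most 2 genes with the smallest p were named, apart from defining markers, and 1 forebrain marker is not reported here. Further members were named after their values were seen. Intervals and tests cover neither the dissection nor the culture.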

Additional observations from a re-analysis of the deposited data

Results flagged for a closer look

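In 80 tests for a library far from the rest of its group of 4, 3 values exceeded the critical ratio of gap to range of 0.829. Chance gives about 1 in 20, and 3 of 80 is no more than that. All 3 values were in KO-labelled males, and no value of KO female 3 was flagged. Hydin in KO male 3 was low, at 3.62 CPM against 6.53 to 7.09 CPM in the other 3 KO-labelled male libraries (ratio 0.837). Cfap44 in KO male 4 was high, at 15.8 against 11.5 to 12.2 CPM (ratio 0.842), and so was Cfap65, at 17.6 against 11.4 to 11.9 CPM (ratio 0.925).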

How the results depend on the processing

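At 4 h the count of members called, 0, became 1 with no filter on low values (Lrrc23), 1 with DESeq2 on the recovered reads (Foxj1) and 1 with the replicate block (Lrrc23), and lay between 0 and 4 with each library left out. The number called over all genes with no filter at 4 h is not given here, so that call of Lrrc23 cannot be weighed against all genes. The median at 4 h was -0.67 without the libraries with Xist reads, an alternative chosen after seeing the data, and -0.61 to -0.40 with each library left out. At 24 h, with no filter on low counts, 2 members were called for the difference of the sexes' contrasts (Cfap65 and Hydin) and 1 between the sexes (Hydin); the count was 0 with each library left out. Single genes turned in direction as follows: Rfx2 at 4 h was -0.061 without KO 3 (-0.061 to 0.17 with each library left out), and Foxj1 in the averaged 24 h contrast was below 0 without Het female 3, KO female 3 or KO male 4 (-0.20 to 0.17 with each library left out), -0.067 with the replicate block and -0.043 without the libraries with choroid plexus reads (chosen after seeing the data). The causes were not tested. Leaving out each library gave 24 h medians of -0.16 to 0.04 averaged, -0.15 to 0.19 in females, -0.23 to 0.09 in males, -0.32 to 0.05 for the difference of the sexes' contrasts and -0.22 to 0.01 between the sexes, so that each of these 5 medians changed sign. The averaged median turned positive without Het female 1 (0.04), KO female 1 (0.04), KO female 2 (0.01), Het male 3 (0.03) or KO male 3 (0.01). The female median turned negative without Het female 3 (-0.03) or KO female 3 (-0.15), and the male median positive without Het male 3 (0.09). The other 2 turned positive without KO female 3 (0.05 and 0.01).

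Over all genes, 7 were called at 4 h, against 38 with the replicate block, 161 with DESeq2, 211 without KO 2, 11 without KO 1, 1 without WT 1 and 2 without WT 2. At 24 h, with no filter on low counts, 263, 180, 220, 165 and 215 genes were called in the averaged, female, male, difference and sex contrasts, against 0 in the first 4 with the filter. At 24 h the same-number correlations were -0.160 to 0.0919, and the replicate block called 0 members, with medians of -0.10 averaged, 0.03 in females and -0.18 in males. At 4 h it changed the call of no member other than Lrrc23. Depth limits Mcidas and Daw1 most, with 4 counts and 8 reads in their lowest libraries.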
